A study of Mus musculus with 6 samples.

Results

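The genes described here encode histone chaperones, the proteins that carry histones and place them on DNA. The set holds 7 members: Chaf1a, Chaf1b, Asf1a, Asf1b, Hira, Daxx and Nasp, out of 21887 protein-coding genes in a RefSeq gene table. They were chosen by function and on the presence and score of peaks at Chaf1a, which were already known to differ between groups. Every peak overlapping a member gene or the 20 kb either side (mouse build mm10) was then read per gene and list. Accessible DNA was measured by ATAC-seq, in which the Tn5 transposase inserts sequencing adapters where DNA is open, in CGR8 mouse embryonic stem cells. The 6 samples form 3 groups of 2 replicates, titled mito, LM and eG1-1, and each sample has 1 list of peaks. The series title concerns the exit from mitosis, so mito was read as mitosis, LM as its late stage and eG1-1 as early G1, although the labels do not spell these out. No sample differed from the others in treatment: all grew in a serum-free N2 and B27 medium with leukemia inhibitory factor, 3 µM CHIR99021 (a GSK3 inhibitor) and 1 µM PD184352 (a MEK inhibitor). The series text names the line as CGR8 Cdt1-MD, and nothing says whether it is 1 clone or whether replicates were separate cultures.

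Newly made histones H3 and H4 pass from chaperone to chaperone before they reach DNA. NASP keeps the soluble pool, ASF1A and ASF1B hand H3-H4 dimers on, CAF-1 deposits them behind the replication fork, and HIRA and DAXX deposit the variant H3.3 outside replication. CAF-1 consists of CHAF1A, CHAF1B and RBBP4, and in embryonic stem cells it is known for helping to hold the pluripotent state.

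The promoters that the results turn on are printed here from RefSeq (GRCm38.p6, the assembly of mm10), each from 250 bases before to 50 after the annotated start site. Chaf1a is shown for its presence in LM and eG1-1 without mito, Chaf1b as the other CAF-1 subunit that was held throughout, Asf1b for the highest score and Asf1a for its near absence. They lie at chr17:56040166-56040465 (+), chr16:93883651-93883950 (+), chr8:83955444-83955743 (+) and chr10:53596711-53597010 (+). Capitals mark exact matches, on either strand, to any of the motifs searched: TTGGCGC (an E2F core), TTCGCGC (another E2F core), TTCCCGC (a further E2F core), CCAAT (bound by NF-Y), TTTGAA (the CHR element), GGGCGG (the SP/KLF box), CCGGAAG (an ETS core), TGACGTC (part of the CRE), CGCATGC (part of the NRF1 site), AAGATGG (a YY1 core) and ATGCAAA (part of the octamer).
Chaf1a: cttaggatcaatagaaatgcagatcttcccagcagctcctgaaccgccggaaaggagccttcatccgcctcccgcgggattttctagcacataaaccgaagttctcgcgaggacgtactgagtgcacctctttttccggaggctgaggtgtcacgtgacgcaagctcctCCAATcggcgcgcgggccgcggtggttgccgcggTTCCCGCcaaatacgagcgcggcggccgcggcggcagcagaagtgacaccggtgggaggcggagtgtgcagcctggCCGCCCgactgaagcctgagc
Chaf1b: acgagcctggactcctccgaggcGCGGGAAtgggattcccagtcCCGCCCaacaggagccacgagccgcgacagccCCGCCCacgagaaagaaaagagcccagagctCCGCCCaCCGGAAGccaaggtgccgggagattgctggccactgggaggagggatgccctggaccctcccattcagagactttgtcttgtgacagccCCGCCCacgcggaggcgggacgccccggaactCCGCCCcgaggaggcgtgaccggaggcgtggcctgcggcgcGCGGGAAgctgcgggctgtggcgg
Asf1b: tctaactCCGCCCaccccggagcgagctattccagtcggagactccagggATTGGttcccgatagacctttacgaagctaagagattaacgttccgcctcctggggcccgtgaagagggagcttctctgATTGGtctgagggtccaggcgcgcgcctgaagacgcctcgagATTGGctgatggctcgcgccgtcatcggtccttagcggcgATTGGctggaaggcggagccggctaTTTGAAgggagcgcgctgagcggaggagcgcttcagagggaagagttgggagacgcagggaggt
Asf1a: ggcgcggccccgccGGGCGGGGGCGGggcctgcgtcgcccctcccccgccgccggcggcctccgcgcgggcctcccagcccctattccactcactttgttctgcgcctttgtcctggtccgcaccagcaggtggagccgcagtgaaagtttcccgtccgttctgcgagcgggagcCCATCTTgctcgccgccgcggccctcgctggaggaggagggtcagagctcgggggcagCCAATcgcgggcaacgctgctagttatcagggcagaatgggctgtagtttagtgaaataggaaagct

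An E2F core was matched in 2 of the 7 members, both of them CAF-1 subunits, while 8.07% of the 32851 promoters in the table hold at least 1 of the 3 cores. In Chaf1a the match TTCCCGC lay 47 to 41 bases before the start site, beside a CCAAT match 81 to 77 bases before it. Chaf1b had the reverse complement of the same core at 227 to 221 bases before the start and again 26 to 32 bases after it, with 5 matches to the SP/KLF box. Asf1b had 4 matches to CCAAT and 1 to the CHR element. CCAAT was matched in 5 members and in 37.4% of all promoters, and the SP/KLF box in 6 members and in 35.7%. The CHR element was found in Asf1b and Nasp (17.9% of all promoters), the ETS core in Chaf1b, Hira and Daxx (8.86%) and the YY1 core in Asf1a (6.34%). None of the CRE, NRF1 or octamer letters (3.21%, 3.58% and 4.63% of all promoters) occurred in these windows. The members' promoters were rich in CpG, with 27 to 33 CpG per 300 bases against a median of 7 over all promoters, except Nasp with 13. A match shows letters only, and its part in any peak was not tested.

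Most members were held throughout the series and the exceptions were Chaf1a and Asf1a. A peak overlapping the 300-base promoter was called in all 6 lists for Chaf1b, Asf1b, Hira, Daxx and Nasp, as for 24.6% of the protein-coding genes with a promoter in the table. It was called in 4 lists for Chaf1a and in 1 for Asf1a. Counted by peaks within 1 kb of either annotated gene end, which includes the peaks of close neighbours, the same 5 members (71.4% of 7) were held in all 6 lists. Of all protein-coding genes 27.8% were. By list, the members with a gene-end peak numbered 5 and 5 for mito, 7 and 6 for LM, and 6 and 6 for eG1-1, for replicates 1 and 2. The shares of all protein-coding genes were 46.6% and 50.4%, 47.4% and 35.7%, and 42.1% and 52.7% in the same order. Among members with a gene-end peak, the median percentile of the score within its own list ran from 77.7 in eG1-1 replicate 1 to 89.7 in mito replicate 2. Over all genes with such a peak, the median ran from 70.0 to 75.3. Peak scores are the authors' own values, and none was under 13. Their scale is not given, so they are compared within a list only.

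**Figure D1:**
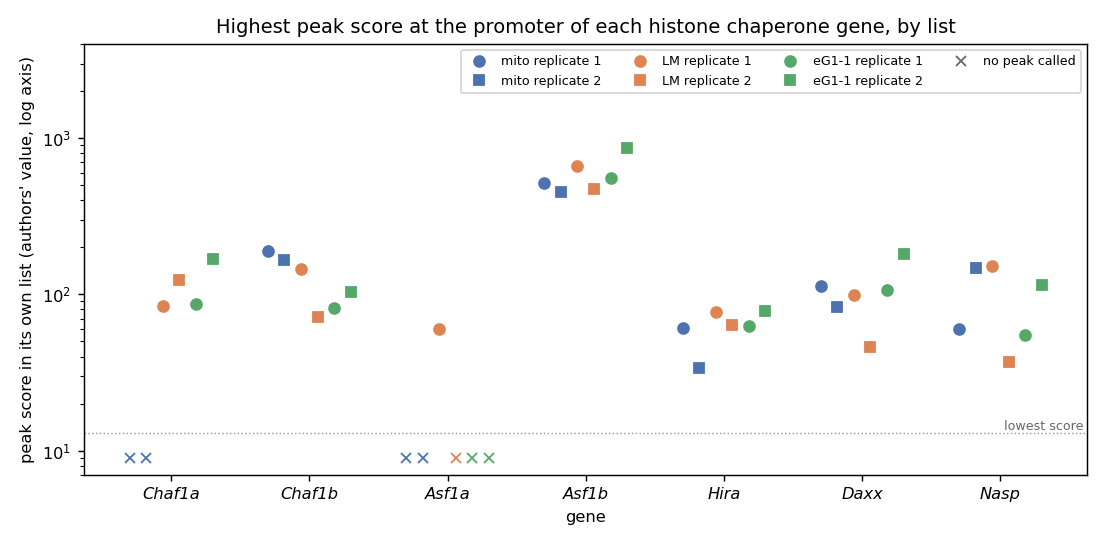
Highest score of a peak overlapping the promoter of each gene (y axis, authors' score, log scale), with circles for replicate 1, squares for replicate 2, colours for the groups and crosses where no peak was called. Asf1b stands between 454 and 860, above the other members of the same list in each of the 6 lists, and Chaf1a and Asf1a are the genes with crosses.

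Chaf1a encodes the large subunit of CAF-1. It had a promoter peak in both LM lists, with scores of 84 and 123, and in both eG1-1 lists, with scores of 87 and 169, and no promoter peak in either mito list. These scores lay at the 73.7th, 90.7th, 79.0th and 90.8th percentile of their lists, so they were not weak calls. Chaf1a was thus the 1 member of 7 held by both eG1-1 lists and neither mito list, a pattern of 1.61% of all protein-coding genes. It was likewise the 1 member held by both LM lists and neither mito list, against 0.356% of all genes. Since these peaks led to the choice of the set, the counts are a description. No member was held in both lists of mito and neither of eG1-1 (1.97% of all genes), nor in mito and not LM (2.17%), LM and not eG1-1 (0.48%) or eG1-1 and not LM (2.35%). Replicate 1 and replicate 2 samples came from 1 sequencing run each, and within each run Chaf1a had no mito peak but an LM and an eG1-1 peak.

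The Chaf1a peaks lay just upstream of the start site at 56040416 on chromosome 17. The merged region, chr17:56039927-56040413, ended 3 bases before it. The LM peaks were short, 264 and 254 bases, and reached from 322 to 59 and from 293 to 40 bases before the start. The eG1-1 peaks were 410 and 399 bases long and reached from 489 to 80 and from 401 to 3 bases before it. The CCAAT match printed above was covered in full by 3 of the 4 peaks and the E2F core match by 2. No peak was called inside the Chaf1a gene body.

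The nearest promoter upstream had a different presence. Sh3gl1, which encodes an endophilin of membrane trafficking, starts on the opposite strand 3757 bases from the Chaf1a start. Its peak, within chr17:56036338-56037116, scored 89 and 97 in mito and 87 in LM replicate 1, and was not called in LM replicate 2 or in eG1-1. LM replicate 1 was therefore the list that held both promoters, while each of the 5 other lists held 1 of them. On the far side, the promoter shared by Ubxn6 and Hdgfl2 (chr17:56078918-56079674) was held in every list. Its scores were 248 and 337 for mito, 397 and 284 for LM, and 414 and 552 for eG1-1, all at or above the 97.9th percentile. Nearer to Chaf1a on that side, other annotated Ubxn6 promoter positions had few and low peaks. The region chr17:56074730-56075082 scored 21 in mito replicate 1 and 24 in LM replicate 1. The region chr17:56074450-56074726 scored 29 in eG1-1 replicate 2 alone. In both mito lists, then, the Sh3gl1 promoter and the promoter shared by Ubxn6 and Hdgfl2 had called peaks, and the Chaf1a promoter did not.

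**Figure D2:**
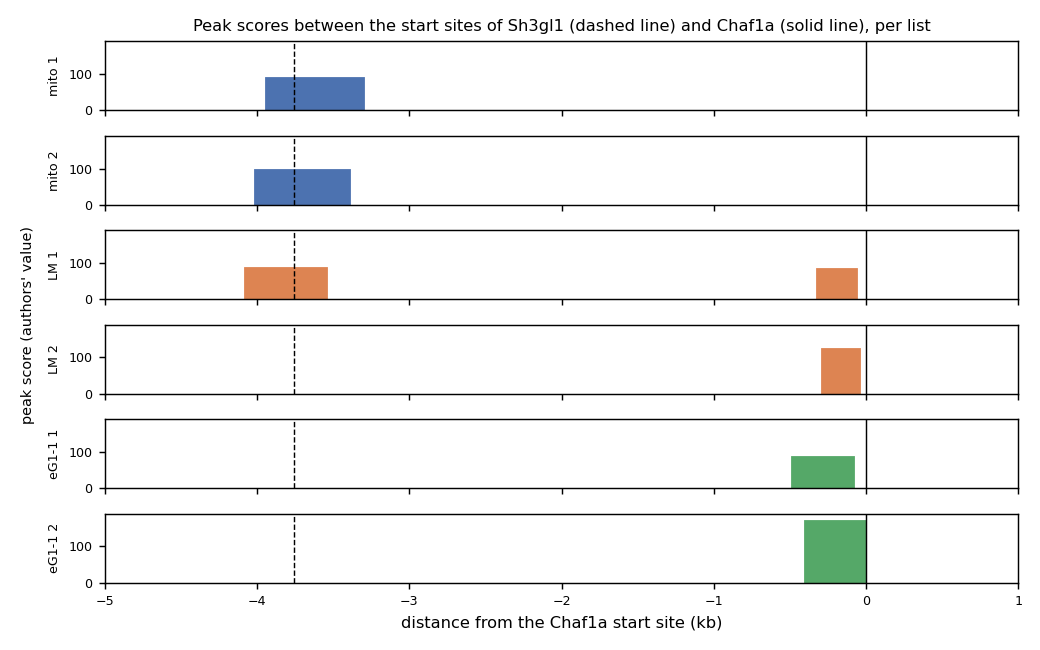
Peaks between the start sites of Sh3gl1 (dashed line) and Chaf1a (solid line) in each list, with distance from the Chaf1a start site in kb on the x axis and the authors' score as the height of each box. Mito lists show the Sh3gl1 peak alone, LM replicate 1 shows both, and LM replicate 2 and both eG1-1 lists show the Chaf1a peak alone.

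Chaf1b encodes the middle subunit of CAF-1. Its promoter scored 189 and 166 for mito, 146 and 72 for LM, and 82 and 104 for eG1-1. Within their lists these were the 95.4th and 92.4th percentile in mito, the 90.6th and 72.5th in LM, and the 76.3rd and 77.6th in eG1-1. In both mito lists Chaf1b ranked next after Asf1b among the members. Chaf1a stood above it in LM replicate 2 and both eG1-1 lists, and below it in LM replicate 1. The region, chr16:93883266-93884375, was split in mito replicate 2 into a main peak and a second one of score 50 that began 238 bases after the start. Further peaks lay inside the gene and behind it. One in the gene body, 7.2 kb after the start (chr16:93890869-93891389), scored 47 in LM replicate 1 and 60 and 95 in eG1-1. Mito replicate 1 had its own peak of score 41 next to it, separated by 16 bases, so the absence of mito there depends on how peaks are merged. Behind the gene, chr16:93911170-93911697 scored 29 in mito replicate 2 and 24 and 120 in eG1-1, with none in LM.

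RBBP4, the small CAF-1 subunit, is no member but completes the complex. Rbbp4 had a gene-end peak in every list, at 123 and 125 for mito, 205 and 121 for LM, and 194 and 156 for eG1-1. Of the genes for the CAF-1 subunits, Chaf1a alone lacked a peak in mito. Rbbp7, the close relative of Rbbp4 that serves in other histone complexes, had 148 and 126 in mito and 93 in LM replicate 1, and no peak in LM replicate 2 or eG1-1. The presence of Rbbp7 over the 6 lists equalled that of Sh3gl1. It is not particular to them, since Anp32b, another chaperone gene, and Adgrl1, a neighbour of Asf1b, had it too. The share of all genes with this presence was not counted.

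The paralogues Asf1a and Asf1b stood at opposite ends of the set. Asf1b, the form most tied to proliferating cells, had the highest score among the members in each of the 6 lists. Its promoter scored 512 and 454 for mito, 666 and 475 for LM, and 553 and 860 for eG1-1, between the 99.7th and 99.9th percentile. The region chr8:83954879-83955916 also covers the start of the long noncoding RNA gene Gm10644, which begins 361 bases away on the other strand, so 1 peak serves both. The next gene, Prkaca, a catalytic subunit of protein kinase A, was also held throughout, with 305 and 312 for mito, 357 and 259 for LM, and 442 and 454 for eG1-1. No peak was called within the Asf1b gene body beyond its promoter.

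Asf1a, the form that works closely with HIRA, had a promoter peak in LM replicate 1 only, with a score of 60 at the 57.5th percentile (chr10:53596804-53597078). Neither mito list, neither eG1-1 list and not LM replicate 2 held it. A gene-end peak in LM replicate 1 and no other list was found for 0.891% of protein-coding genes. A second region inside the gene, chr10:53598777-53599314 and centred 2.1 kb after the start, was called in 4 lists. It scored 31 in mito replicate 1, 33 in LM replicate 2, and 59 and 121 in eG1-1, and lay outside the 1 kb used for gene ends. LM replicate 1, which had the promoter peak, lacked this one, and mito replicate 2 lacked both. Asf1a lies within Mcm9, a helicase gene on the other strand, and a region 16.4 kb before Asf1a, also inside Mcm9, was held by mito replicate 2 (57), LM replicate 1 (71) and both eG1-1 lists (49 and 112).

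The Mcm9 start shows what the 20 kb limit leaves out. Its region begins 20042 bases behind Asf1a, just beyond the limit, and was held in all 6 lists, with scores of 121 and 81 for mito, 172 and 197 for LM, and 229 and 527 for eG1-1. Just inside the limit, the farthest region was 18439 bases before Asf1b, with a score of 18 in eG1-1 replicate 2 alone. The promoter of Kifc1, a kinesin, 18217 bases before Daxx, was held in 5 lists.

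Nasp, the keeper of soluble H3-H4, had a promoter peak in every list but varied widely between replicates. Scores were 60 and 148 for mito, 151 and 37 for LM, and 55 and 114 for eG1-1. Their percentiles were 55.9 and 89.7, 91.2 and 34.2, and 57.3 and 80.6, so replicates of a group lay farther apart than the groups. Its promoter also differed from those of the other members in sequence, with 48.3% G and C against 61.3% to 70.3%. The start site used for Nasp, at 116627951 on chromosome 4, lies inside the annotated gene, which extends to 116628676 on that side. Mito replicate 1 had a separate second peak of score 47, from 751 to 1224 bases after the start.

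Hira encodes the H3.3 chaperone that acts outside replication. Its promoter scored 61 and 34 for mito, 77 and 64 for LM, and 63 and 78 for eG1-1, between the 18.6th and 69.9th percentile. The mitochondrial ribosomal protein gene Mrpl40 starts 113 bases away on the other strand. The merged region chr16:18876133-18877139 covers both starts, as did the peaks of mito replicate 1 and LM replicate 1. The promoter peaks of mito replicate 2, LM replicate 2 and eG1-1 replicate 2 lay inside Mrpl40 and covered neither start. That of eG1-1 replicate 1 covered the Mrpl40 start only. The peaks therefore cannot be assigned to Hira alone. A second region 1.2 kb inside Hira (chr16:18877561-18878363) scored 47 and 83 in mito, 38 in LM replicate 1 and 56 in eG1-1 replicate 2. In mito replicate 2 this inner peak was above the promoter peak. No peak was called in the remaining gene body, although Hira is the longest member at 93560 bases. A region 17.9 kb upstream, between genes (chr16:18858557-18859081), scored 25 in mito replicate 1, 92 in LM replicate 2, and 65 and 198 in eG1-1.

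Daxx encodes the H3.3 chaperone that works with ATRX at repeated DNA. Its promoter scored 113 and 83 for mito, 99 and 46 for LM, and 107 and 182 for eG1-1, between the 47.8th and 92.1st percentile. The region chr17:33908686-33909674 also covers the start of the noncoding gene BC051226, 267 bases away on the other strand. At the other end of this short gene, the promoter of Zbtb22 (chr17:33915744-33916188) was held in every list with 107 and 130, 132 and 107, and 154 and 271. It lay above the Daxx promoter in 5 lists, all but mito replicate 1. Atrx itself had gene-end peaks of 65 in mito replicate 1, 24 and 19 in LM, and 51 in eG1-1 replicate 2, and none in the other two lists. The Daxx window was the densest, with 8 regions in 46.2 kb, and 5 other protein-coding genes reach into it.

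**Figure D3:**
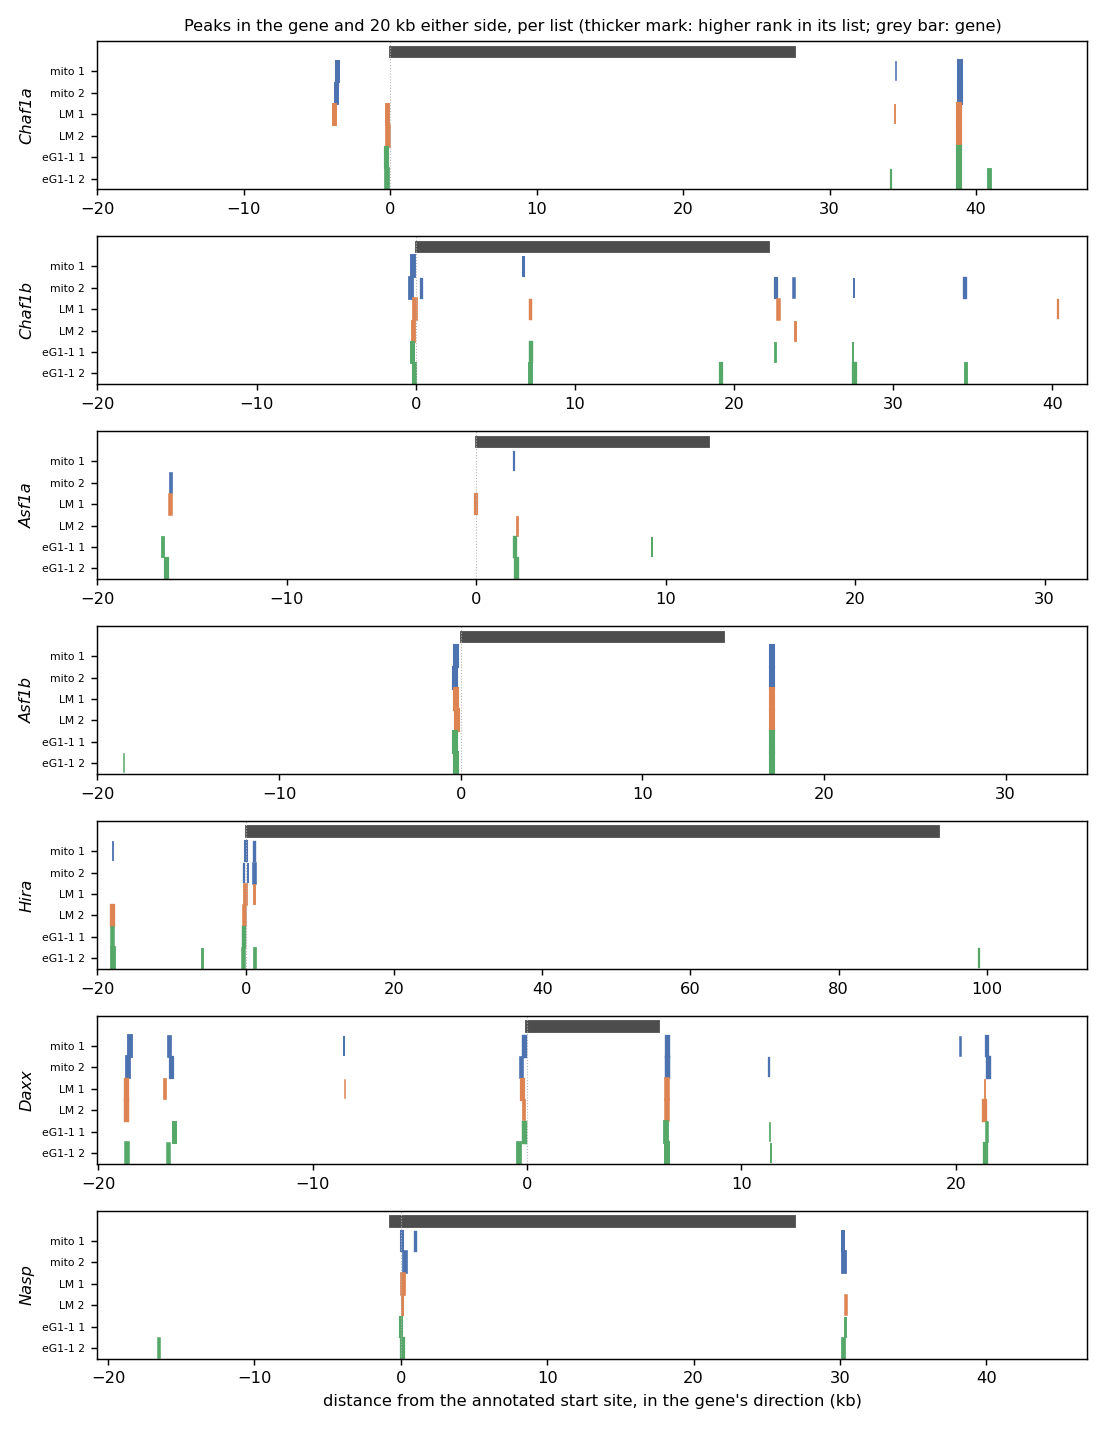
Peaks of each list (rows, coloured by group) in each member gene and 20 kb either side, with distance from the start site in kb on the x axis, the gene as a grey bar and thicker marks for a higher rank within the list. Promoter marks line up in all 6 rows for Chaf1b, Asf1b, Hira, Daxx and Nasp, start with LM for Chaf1a, and appear once for Asf1a.

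Over the 7 windows the lists held 127 peaks, which formed 38 regions once peaks sharing 1 base or more were joined. Peaks numbered 21.5 ± 0.707 for mito, 18.0 ± 4.24 for LM and 24.0 ± 5.66 for eG1-1 (SD, n = 2 each), with 15 in LM replicate 2 and 28 in eG1-1 replicate 2. Those lists were also the shortest and the longest of the series, with 20639 and 48396 peaks, and the depth of each list is unknown. The spread between replicates of LM and of eG1-1 was of the size of the differences between groups. Regions present in all 6 lists numbered 9 (23.7%, against 15.5% of all 65324 regions), and each of them lay within 1 kb of an annotated end of a protein-coding gene. Of the 19 regions with no such end within 1 kb, 0 were held by all lists and 10 by a single list. The matching shares over all regions near to and away from gene ends were not counted, so this split is not shown to be particular to these windows. Some of the 19 still overlapped an annotated promoter, at Ubxn6 or at the noncoding gene Gm19412. In all, 12 regions had a peak in 1 list (31.6%, against 42.4% of all regions), and for 7 of them the list was eG1-1 replicate 2.

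Few window regions separated the groups. Of the 38 regions, 2 were called in both eG1-1 lists but in no mito list (5.26%, against 8.07% of all regions), the Chaf1a promoter and the region inside Chaf1b. In both mito lists but no eG1-1 list there was 1 (2.63%, against 1.85%), the Sh3gl1 promoter. The Chaf1a promoter was the 1 region of both LM lists and neither mito list (0.905% of all regions), and 0 were the reverse (3.56%). In both eG1-1 lists but no LM list there were 2 (9.38% of all regions), the one behind Chaf1b and another inside Tapbp near Daxx (chr17:33920580-33920943). The latter overlapped the promoter of the noncoding gene Gm19412. In both LM lists but no eG1-1 list there were 0 (0.459%). All these shares lay close to the background or rested on 1 or 2 regions. In nuclei taken in bulk, fewer nuclei with an open site and less opening in each cannot be told apart.

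Promoter peaks also differed in how far they reached past the start site, a measure that the choice of members did not use. It was added after the positions were seen. At Daxx the peaks ended 229 and 133 bases after the first annotated start in mito and 182 and 54 in LM. In eG1-1 both ended 8 bases before it. At Hira mito replicate 1 and LM replicate 1 reached 341 and 175 bases beyond the start. The other lists ended before it, by 138 bases in mito replicate 2, 138 in LM replicate 2, and 112 and 142 in eG1-1. At Asf1b the reach was 191 and 222 for mito, 201 and 196 for LM, and 41 and 201 for eG1-1, so the eG1-1 replicates differed. At Chaf1b it was 268 in mito replicate 1, 358 and 67 in LM, and 10 and 465 in eG1-1, while mito replicate 2 ended 17 bases before the start. Nasp reached 460 and 754 for mito, 677 and 306 for LM, and 338 and 432 for eG1-1. At Daxx and Nasp both mito values were above both eG1-1 values, and at Asf1b, Chaf1b and Hira the groups overlapped. The reach counts peaks that overlap the promoter window. At Hira mito replicate 2 had another peak of the same region, with a score of 29, from 127 to 389 bases after the start. Counted with it, mito would reach 341 and 389 bases, above both eG1-1 values. At Chaf1b the second peak of mito replicate 2, from 238 to 474 bases after the start, leaves the overlap in place. At Nasp the second peak of mito replicate 1, from 751 to 1224 bases after the start, leaves both mito values above both eG1-1 values.

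Over the 4064 genes with a peak in every list at their first annotated promoter, the start site from which reach is measured, the median reach was 259.5 and 289.0 bases for mito, 283.0 and 100.5 for LM, and 138.5 and 224.0 for eG1-1. Both eG1-1 medians were thus below both mito medians over all genes too, and the shorter reach at Daxx and Nasp is not particular to them. The median width of all peaks moved with it, at 456 and 503 bases for mito, 459 and 336 for LM, and 340 and 410 for eG1-1, and its part in the reach was not tested. At Chaf1a all 4 peaks ended before the start site. Among the same genes, peaks that ended before the start made up 8.83% to 22.9% per list.

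Other histone chaperones and their partners, a list of 32 genes, were mostly held in mito and LM replicate 1. A gene-end peak was called for 30 and 30 of them for mito, 31 and 23 for LM, and 21 and 25 for eG1-1, and 18 of the 32 (56.2%) had one in all 6 lists. By share this was 93.8% and 93.8%, 96.9% and 71.9%, and 65.6% and 78.1%, against the 46.6% and 50.4%, 47.4% and 35.7%, and 42.1% and 52.7% of all protein-coding genes. Of the 32, 3 were called in both mito lists but no eG1-1 list, against 1.97% of all genes, and 0 showed the Chaf1a direction (1.61%). The 3 were Rbbp7, Anp32b and Mcm2. Anp32b, which encodes an acidic histone-binding protein, scored 42 and 84 in mito and 43 in LM replicate 1. Mcm2, a replicative helicase subunit that also binds H3-H4, was the gene of both LM lists and neither eG1-1 list (0.48% of all genes).

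Among the partners of the members, the HIRA complex subunits Ubn1 and Cabin1 had gene-end peaks in every list. Atrx, the partner of Daxx described above, had none in mito replicate 2 or eG1-1 replicate 1. Ubn1 scored 149 and 220 for mito, 120 and 97 for LM, and 93 and 322 for eG1-1, and Cabin1 scored 143 and 80, 123 and 61, and 54 and 150. Hjurp, the chaperone that loads the centromeric histone CENP-A, was among the highest of the list, with 263 and 330, 349 and 314, and 330 and 392. Ubn1, Cabin1 and Hjurp had peaks in both mito lists, unlike Chaf1a.

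**Figure D4:**
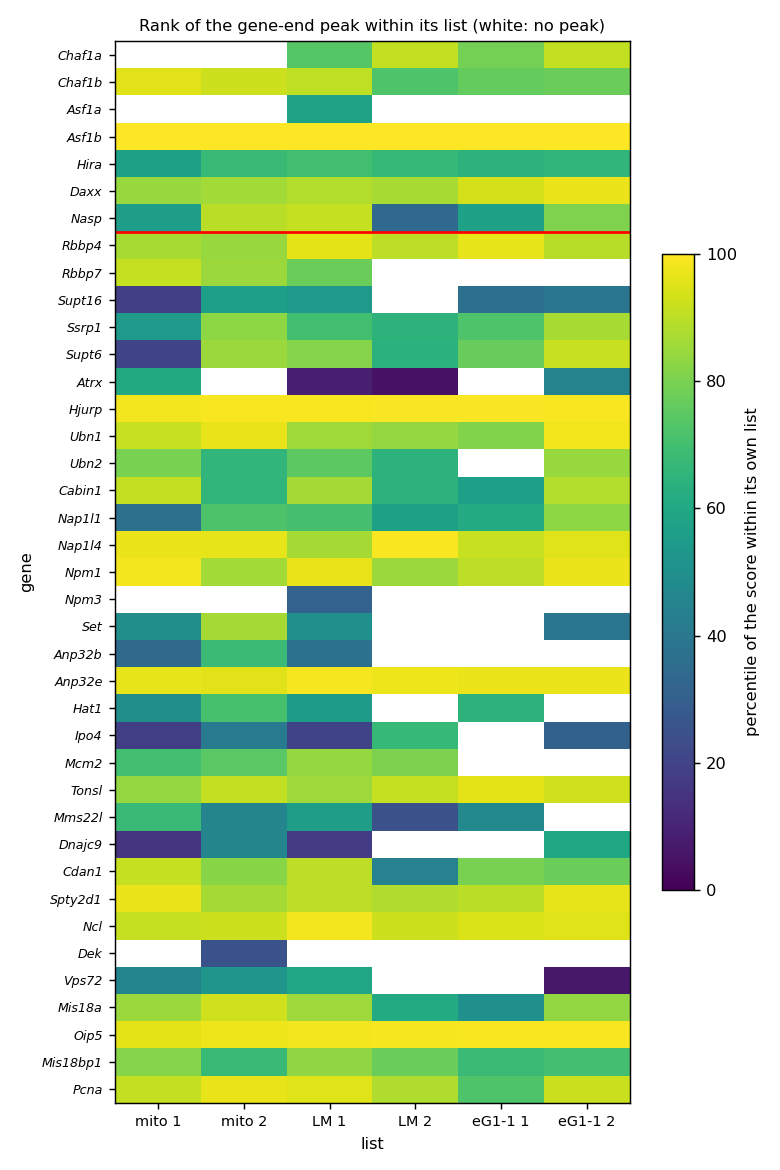
Percentile of the highest gene-end peak within its own list (colour, 0 to 100) for the 7 members above the red line and 32 other chaperone genes below it, with the 6 lists in columns and white where no peak was called. White cells lie mainly in LM replicate 2 and the eG1-1 lists, whereas Chaf1a is white in mito.

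The presence of a gene-end peak in both LM and both eG1-1 lists and in neither mito list was shared by 35 protein-coding genes, 0.16% of all, Chaf1a included. All 35 match Chaf1a in 6 of 6 lists. Beside Chaf1a, with 84 and 123 for LM and 87 and 169 for eG1-1, the 8 others whose lowest score was highest were named. This is a rule for naming and gives no order, since scores of different lists are not on a known common scale. Lin37, a subunit of the MuvB core of cell cycle gene control, scored 75 and 82 for LM and 180 and 209 for eG1-1, below Chaf1a in both LM lists and above it in both eG1-1 lists. Mospd1, with 59 and 56 for LM and 184 and 191 for eG1-1, lay to the same sides of Chaf1a. Katnal2, a katanin-like protein of microtubule severing, scored 66 and 57 for LM and 143 and 97 for eG1-1. The others were Otulinl, Cox7a1, Fbxo16, Rad51ap2 and Arc, whose lowest score of 35 Scg5 shared. No other histone chaperone of the 32 was among the 35 genes.

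The lists were set beside markers of the labelled cell type. Of 7 embryonic stem cell genes, 6 and 4 had a gene-end peak for mito, 4 and 3 for LM, and 1 and 5 for eG1-1. Zfp42 was held in all 6 lists and Esrrb in none at its ends. Of 4 endoderm genes 0 had one, apart from Foxa2 in eG1-1 replicate 2, and of 3 neural genes 1 to 3 had one per list. The fibroblast list had 1 to 3 of its 4 genes, with Col1a1 in every list. An open gene end does not show that a gene is expressed. The low count in eG1-1 replicate 1 goes with its low share of chaperone genes, and its part in their missing peaks was not tested. The Chaf1a peak, on which the set was chosen, was present in that list.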

How the data were processed

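ATAC-seq peaks of 6 samples (3 groups of 2) were analysed. Each deposited list has 5 columns, the last a whole-number score of the authors' whose scale is not given in the sources used here. Per the submitters' processing notes the tools included MACS2 2.2.4, STAR 2.7.0e, deepTools 3.5.1, Picard, bedtools and SAMtools 1.10, with the build mm10. Peak names show calls per sample on paired-end fragments, replicates unpooled, with each replicate number from its own sequencing run, and read Telo for LM. The number of cells differs between titles and protocol. Whether reads were shifted for Tn5 is not given. Peaks were read with Python 3.11.15 and pandas 2.3.3. Gene positions and promoters came from RefSeq (GRCm38.p6), and a promoter peak overlapped the 300 bases printed. A gene or region was called when both lists of a group held a peak and neither of the other did. All members matched both tables. Of the 21887 genes, 17492 had a promoter in the table. The calling step was run on simulated lists in which peaks were planted in eG1-1 alone. This checked the code and measured no error rate for real peaks. Members and gene lists were chosen with earlier results of these data known, so no test was made on them. All members were described, with the partners of their complexes, Hjurp, every other chaperone called, and the 8 genes most like Chaf1a by presence and lowest score. Alternatives were a score of at least 50, equal list length (20639 peaks), narrower windows, peak centres and single lists left out. The promoter definition and the peak reach were added after seeing the data.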

Additional observations from a re-analysis of the deposited data

How the results depend on the processing

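The depth of the lists is unknown, and the absence of a peak says only that the caller gave none. No paired analysis was possible because the results come from no test: the members were chosen on these peaks. Equal replicate numbers share a sequencing run, and counts within each run are given. Chaf1a kept its presence in the 4 LM and eG1-1 lists with a score of at least 50, at equal list length, with 500 bp windows and by peak centres. These settings can only remove peaks, so its absence from mito could not have changed. Its lowest score of 84 was above 50 from the start, so that setting could not remove its peaks. Of 141 alternative values, 92 stayed within 1.5 times the reported count and 49 did not. Window peaks numbered 13 in mito replicate 1 and 13 in eG1-1 replicate 1 at a score of at least 50, and 18 in eG1-1 replicate 2 with 10 kb either side. Members called between mito and LM numbered 2 within replicate 1, and between LM and eG1-1 1, in both cases through the Asf1a peak of LM replicate 1. Leaving out 1 list gave 1 to 2 members for mito and LM, 0 to 1 for LM and eG1-1. Window regions called between mito and eG1-1 (3) became 5 at a score of at least 50, 5 at equal length, and 14 and 14 within replicate 1 and 2. Between mito and LM (1) they became 2 at a score of at least 50, and 11 and 11 within the runs. Between LM and eG1-1 (2) they became 0 at equal length, and 13 and 15 within the runs. With 1 list left out they ranged from 6 to 10, 3 to 5 and 4 to 10 in these pairs. Other chaperones called between mito and eG1-1 (3) became 5 at a score of at least 50, 6 at equal length, and 9 and 7 within the runs. Over all protein-coding genes the share in mito and not eG1-1 likewise rose from 1.97% to 2.58% at that score and 5.35% at equal length, and that in eG1-1 and not mito, the Chaf1a direction, went from 1.61% to 1.23% and 0.809%. At equal length the shares were 1.49% for mito and not LM, 0.749% for LM and not mito, 2.69% for LM and not eG1-1 and 0.74% for eG1-1 and not LM. Between mito and LM (0) they became 1 and 9 within the runs. Between LM and eG1-1 (1) they became 2 at equal length, 2 with 500 bp windows, 2 by promoter peaks (added after seeing the data), and 10 and 6 within the runs. With 1 list left out they ranged from 3 to 8, 0 to 7 and 2 to 4. A group of 1 list needs fewer lists to hold or lack a peak, so these counts can only stay or grow. Shares of all regions were not counted at a score of at least 50, at equal length, within the runs or with 1 list left out. Shares of all genes were not counted within the runs, with 1 list left out or by promoter peaks. The counts at those settings therefore stand without a background.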
